A study of Mus musculus with 24 samples.

Results

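The Gimap genes encode the GTPases of immunity-associated proteins, a small family of GTP-binding proteins made chiefly by lymphocytes. Their members were taken as every gene probe on the array whose deposited gene name was Gimap1, Gimap3, Gimap4, Gimap5, Gimap6, Gimap7, Gimap8 or Gimap9. That rule found 10 of 41174 gene probes, for 7 of the 8 named genes (the array's gene probes carry 27962 different names). There were 2 probes each for Gimap3, Gimap5 and Gimap7 and 1 each for Gimap1, Gimap4, Gimap6 and Gimap9. No probe carried the name Gimap8, which was not analysed here. All 10 probes were kept by the filter on dim probes, which required a thymus signal well above background on at least 6 arrays and kept 35185 probes in all.

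GIMAP proteins bind GTP through a shared domain and many of them sit on the membranes of organelles rather than acting as secreted or surface signals. Several are switched on as thymocytes complete selection and mature into T cells, and the family is known for its part in keeping resting T and B cells alive. Loss of Gimap5 causes a shortage of T cells in rodents, and loss of Gimap1 removes most mature lymphocytes in mice. The genes lie side by side on chromosome 6, in the order Gimap8, Gimap9, Gimap4, Gimap6, Gimap7, Gimap1, Gimap5 and Gimap3 in the RefSeq gene table given with assembly GRCm38.p6, with the predicted genes Gm44262 and Gm46958 between Gimap8 and Gimap9. Cdkn1b, the gene deleted in p27 knockout mice, is on the same chromosome, with 1809 genes of that table between it and the cluster, 588 of them with a kept probe.

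Thymuses of 15-week-old C57BL/6 mice of 4 genotypes were profiled on 24 two-channel arrays, 6 mice per genotype (3 females and 3 males, the sex of each mouse not being given). They were wild type, p27 knockout (lacking the cell cycle inhibitor p27Kip1), stathmin knockout (without the microtubule-destabilising protein stathmin, gene Stmn1) and double knockout (without both), and the study's title concerns how p27Kip1 and stathmin control cell proliferation in vivo. The sources used here do not give how the alleles were made or which exons they lack. Each array read 1 thymus in the Cy5 channel against a common pool of fibroblast RNA from mice of every genotype in the Cy3 channel. Every value below, unless it is called an intensity, is therefore a log2 ratio of thymus over that pool: 0 is the level of the pool, and a difference of 1 is a 2-fold change. In whole thymus, fewer cells of a type and less RNA per cell cannot be told apart.

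The arrays themselves differed. Brightness, taken as the 99th percentile of the Cy5 signal in kilo-units, had a median of 78.3 in the p27 knockout (19.3 to 171) against 214 in wild type, 244 for stathmin knockout and 233 for double knockout. The dimmest arrays were p27 knockout replicates 6 and 5, at 19.3 and 50.6, and wild-type replicate 4, at 56.3. Over all kept probes, p27 knockout replicates 6 and 5 correlated with the other arrays by 0.21 and 0.558 on average, where the next lowest array reached 0.77. Double-positive thymocyte genes such as Rag1, which mark most cells of a thymus, had a median log2 ratio of 0.12 in p27 knockout replicate 6. That median was 7.45 in replicate 5, 6.05 to 7.18 in replicates 1 to 4 and at least 5.05 in every mouse of the other genotypes. Replicate 5 was thus not low by this measure. Each comparison that uses the p27 knockout is also given without its replicates 5 and 6, for their low brightness and correlation. All p27 knockout arrays, at 19.3 to 171, were dimmer than all double knockout arrays, at 200 to 320. Replicates 1 and 3, which stayed in, were at 81.4 and 75.2. Between these genotypes brightness and genotype therefore cannot be told apart, with or without replicates 5 and 6. The deleted genes were low where the labels place the deletions, with mean Stmn1 ratios (probe A_52_P319161) of -2.95 and -3.19 in the stathmin and double knockout against 3.1 and 2.45 in wild type and p27 knockout, and mean Cdkn1b ratios (A_51_P146126) of 0.3 and -0.5 in p27 and double knockout against 1.8 and 1.64 in wild type and stathmin knockout. The 6 slides each held 1 array of every genotype, always at the same position, so position on the slide and genotype cannot be told apart.

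The start regions of the 3 members whose probes passed a test in this study (Gimap4, Gimap7 and Gimap3) and of Gimap1, whose probe followed another pattern, are shown so that the genes can be compared base by base. The sequences are RefSeq promoter windows of GRCm38.p6, from 250 bases before to 50 bases after the annotated start, written 5′ to 3′ on the gene's strand. Capitals mark 4 short letter strings, searched on both strands: TGTGGT (a RUNX core), GGAAGT (an ETS core), CACCC (a KLF box) and GTAAACA (a forkhead box of FOXO type).
Gimap4, chr6:48684328-48684627, plus strand: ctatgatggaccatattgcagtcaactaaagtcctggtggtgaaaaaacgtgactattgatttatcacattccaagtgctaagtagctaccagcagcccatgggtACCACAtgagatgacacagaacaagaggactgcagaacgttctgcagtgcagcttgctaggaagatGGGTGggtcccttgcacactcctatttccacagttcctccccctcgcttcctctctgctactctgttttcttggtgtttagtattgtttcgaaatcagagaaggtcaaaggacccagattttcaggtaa
Gimap7, chr6:48718371-48718670, plus strand: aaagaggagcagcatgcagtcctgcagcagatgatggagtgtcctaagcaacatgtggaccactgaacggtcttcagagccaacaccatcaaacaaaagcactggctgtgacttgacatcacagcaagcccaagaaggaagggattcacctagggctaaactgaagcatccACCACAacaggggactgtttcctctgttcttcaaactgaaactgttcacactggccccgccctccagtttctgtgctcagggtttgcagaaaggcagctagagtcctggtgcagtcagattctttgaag
Gimap3, chr6:48770802-48771101, minus strand: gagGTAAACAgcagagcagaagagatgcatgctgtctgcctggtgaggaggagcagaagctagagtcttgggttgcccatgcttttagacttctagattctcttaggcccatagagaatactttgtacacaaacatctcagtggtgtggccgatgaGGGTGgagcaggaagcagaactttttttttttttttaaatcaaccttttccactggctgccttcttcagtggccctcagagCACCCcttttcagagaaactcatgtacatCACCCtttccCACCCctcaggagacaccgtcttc
Gimap1, chr6:48738797-48739096, plus strand: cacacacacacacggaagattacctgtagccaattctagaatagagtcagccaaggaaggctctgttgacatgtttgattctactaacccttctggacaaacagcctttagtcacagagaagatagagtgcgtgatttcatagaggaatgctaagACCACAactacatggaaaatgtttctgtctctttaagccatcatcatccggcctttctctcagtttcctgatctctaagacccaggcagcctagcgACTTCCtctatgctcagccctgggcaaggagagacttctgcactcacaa

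Factors that bind such strings are active in T cells, and the strings were picked for that reason after the sequences had been seen. TGTGGT or its reverse complement ACCACA stood in the windows of Gimap4, Gimap7 and Gimap1, in 3 of the 9 Gimap windows of the table and in 16.7% of its 32544 windows. GGAAGT or ACTTCC stood in the window of Gimap1 and in those of Gimap5, Gimap6 and Gimap9, 4 of 9 against 23.7% of all windows. CACCC or GGGTG stood in 6 of 9 against 57.7% of all, with 4 matches in the Gimap3 window and 1 in that of Gimap4. Gimap8 has a pair of overlapping windows among the 9. They share a CACCC match and both count among the 6. GTAAACA or TGTTTAC stood once, in the Gimap3 window, against 3.66% of all windows. A match is a description of the letters, and no string was found in every member. The GC content of the windows was 46.0% for Gimap4 and Gimap1, 48.0% for Gimap3 and 50.7% for Gimap7, where the median window of the table had 53.0%.

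All members read higher in thymus than in the fibroblast pool, with ratios above 0 on at least 23 of 24 arrays. The thymus channel was well above background on all 24 arrays for 7 of the 10 probes and on 23 for the probes of Gimap4 (A_52_P205001) and Gimap7 (A_51_P448147 and A_52_P684783). Gimap1, which is needed for the survival of mature T and B cells, had a median ratio over the arrays of 6.24. Gimap6, which has been linked to autophagy, had 6.07. The 2 probes of Gimap3, a protein of intracellular membranes closely related to Gimap5, had medians of 4.8 and 4.7, and Gimap9 had 4.61. The 2 Gimap5 probes had 4.48 and 4.16. Gimap4, which is induced as thymocytes mature and speeds the death of T cells, had 3.9. Gimap7, a GTPase that is activated by pairing with another GIMAP molecule, had 3.86 on probe A_51_P448147 and 1.02 on probe A_52_P684783, which carries the name Gimap7 through a cDNA clone. These ratios depend on how much of each gene the fibroblast pool holds, so their order is not an order of abundance in thymus. The pool was well above background on 24 arrays for Gimap6 and Gimap9 and on 22 for Gimap1, but on 0 for Gimap7 A_51_P448147 and Gimap3 A_51_P516753, 1 for Gimap4 and 3 for Gimap3 A_52_P374545. It was well above background on 5 arrays for Gimap5 A_51_P176365 and Gimap7 A_52_P684783, and on 13 for Gimap5 A_52_P102931. Where the pool was near background, the ratio is in effect the thymus signal over a background reading.

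The spread between mice of all genotypes together differed among the members. Over the 22 arrays without p27 knockout replicates 5 and 6, the SD of the log2 ratio was 1.23 for Gimap4, 1.08 for Gimap7 A_51_P448147 and 1.04 and 0.99 for the Gimap3 probes. It was 0.72 and 0.62 for the Gimap5 probes, 0.57 for Gimap7 A_52_P684783, 0.48 for Gimap1, 0.40 for Gimap6 and 0.35 for Gimap9. The 4 probes of the highest SD had the pool well above background on 0 to 3 arrays, but Gimap5 A_51_P176365 and Gimap7 A_52_P684783, with 5 such arrays, had lower SDs. The part of the reference in the spread was not tested. Within the double knockout the same 4 probes were tight, with SDs (n = 6) of 0.25 for Gimap4, 0.32 for Gimap7 A_51_P448147 and 0.39 and 0.35 for Gimap3, and the widest probe there was Gimap5 A_52_P102931, at 0.75.

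**Figure D1:**
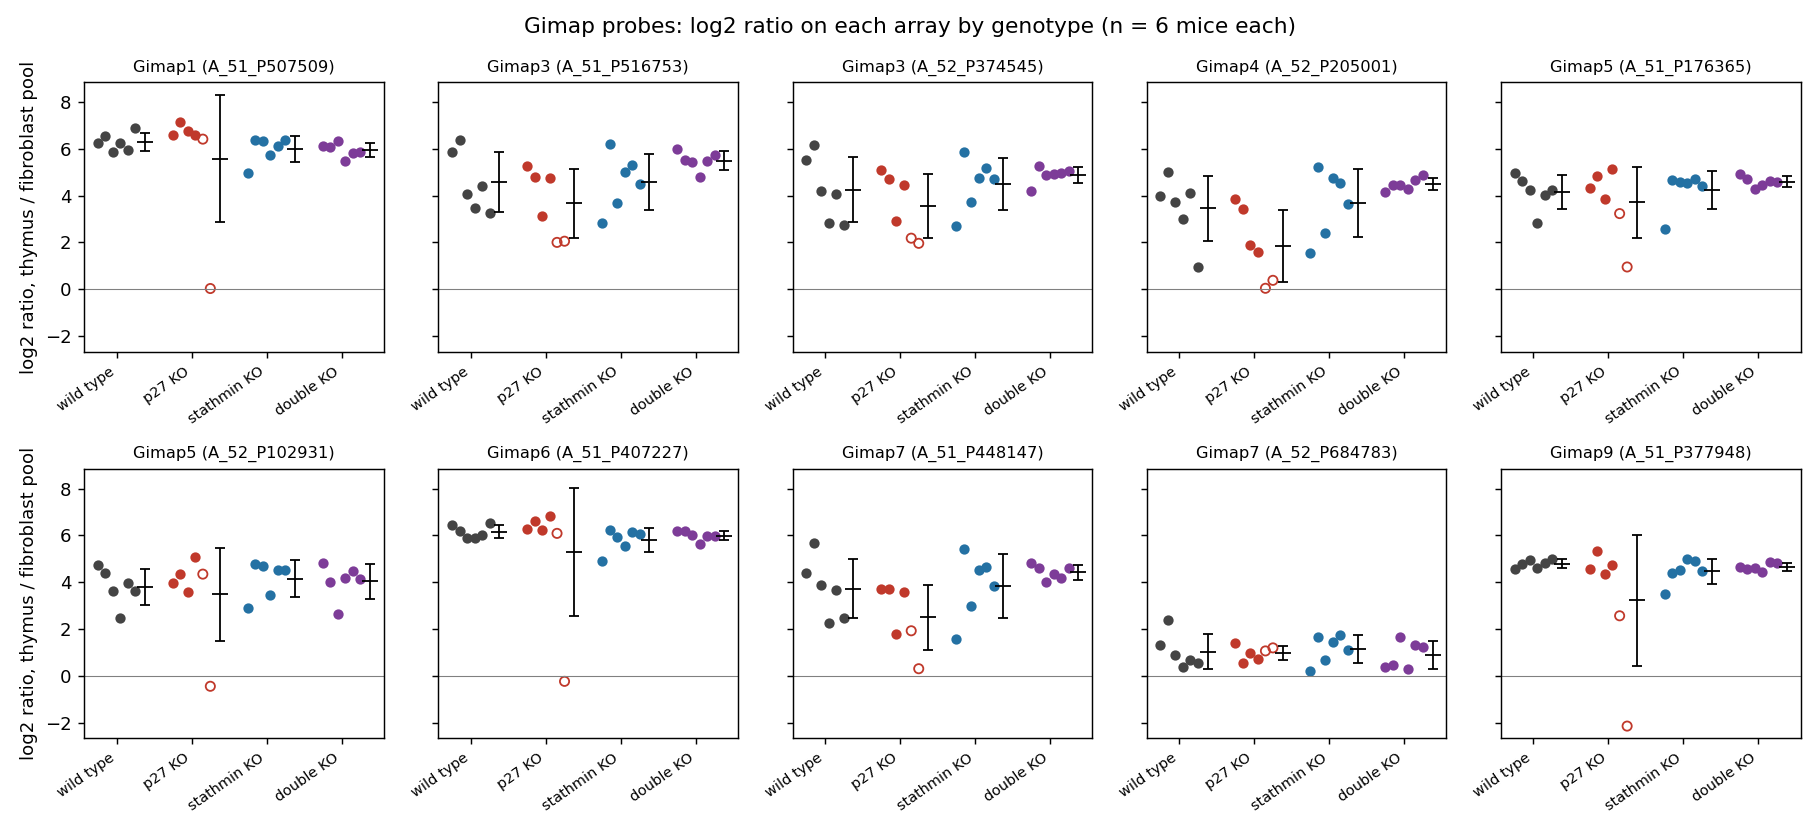
Log2 ratio of thymus over fibroblast pool (vertical axis, no unit) for each of the 10 Gimap probes by genotype. Each point is 1 mouse, open points are p27 knockout replicates 5 and 6, and the bar is the mean with its SD (n = 6). The double knockout points lie close together for Gimap4, at 4.17 to 4.86, where the p27 knockout points run from 0.04 to 3.85.

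Gimap4 had the lowest levels in the p27 knockout and the highest in the double knockout. In the 6 wild-type mice, replicates 1 to 6, it read 3.96, 4.99, 3.71, 3.01, 4.11 and 0.95. The p27 knockout mice read 3.85, 3.41, 1.87, 1.61, 0.04 and 0.38, and the stathmin knockout mice 1.54, 5.20, 2.42, 4.73, 4.53 and 3.66. The double knockout mice read 4.17, 4.46, 4.46, 4.29, 4.68 and 4.86. Wild-type replicate 6, p27 knockout replicates 3 to 6 and stathmin knockout replicate 1 were low, and the double knockout lay above every p27 knockout mouse. From lowest to highest, the genotype means were 1.86 ± 1.55 (SD, n = 6) for p27 knockout, 3.45 ± 1.38 for wild type, 3.68 ± 1.43 for stathmin knockout and 4.49 ± 0.25 for double knockout. No step between neighbours in that order passed the threshold after adjustment over all probes. The limma adjusted p was 0.131 for p27 knockout against wild type. It was 1.00 for the steps from wild type to stathmin knockout and from there to double knockout. In raw Cy5 intensity, the double knockout spots read 4369 to 8806 units and the p27 knockout spots 153 to 1765, on arrays that were dimmer as a whole. The spot of p27 knockout replicate 6 was not well above background.

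The first Gimap7 probe, A_51_P448147, followed the same order. It read 4.41, 5.67, 3.87, 2.25, 3.69 and 2.47 in wild type and 3.70, 3.70, 1.79, 3.59, 1.93 and 0.31 in the p27 knockout. Stathmin knockout mice read 1.58, 5.44, 2.98, 4.54, 4.67 and 3.85, and double knockout mice 4.84, 4.63, 4.00, 4.34, 4.17 and 4.63. Every double knockout mouse was above every p27 knockout mouse, while wild type and stathmin knockout overlapped both. The means were 2.50 ± 1.39 (SD, n = 6), 3.73 ± 1.27, 3.84 ± 1.39 and 4.43 ± 0.32 in p27 knockout, wild type, stathmin knockout and double knockout. Adjusted p was 0.198 between p27 knockout and wild type and 1.00 for the other neighbours.

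For Gimap3, probe A_51_P516753 read 5.88, 6.37, 4.06, 3.47, 4.41 and 3.24 in wild type and 5.28, 4.81, 3.11, 4.73, 2.00 and 2.05 in the p27 knockout. Stathmin knockout mice read 2.84, 6.20, 3.69, 5.00, 5.29 and 4.49, and double knockout mice 5.98, 5.52, 5.43, 4.80, 5.47 and 5.73. The double knockout mice were all at 4.80 or above, but p27 knockout replicates 1 and 2 reached that range and the groups overlapped. The second Gimap3 probe, A_52_P374545, had the genotype order of Gimap4. Its means ran from 3.55 ± 1.37 (SD, n = 6) for p27 knockout over 4.25 ± 1.40 for wild type and 4.49 ± 1.12 for stathmin knockout to 4.88 ± 0.35 for double knockout, with overlapping groups.

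Stathmin knockout replicate 1 was the lowest of its group on all 10 probes in the normalized ratio, among them Gimap1 at 4.98, Gimap6 at 4.91 and Gimap9 at 3.51. Its raw Gimap4 intensities, 3241 units in Cy5 and 194 in Cy3, were near those of wild-type replicate 1, 3753 and 221, where the ratio was 3.96 rather than 1.54. The authors' deposited table gave that array the highest column median, 10.6 against 8.62 to 9.75 for the other 23. By the Cy5 99th percentile the same array was not unusual, at 254 kilo-units within 131 to 340 for stathmin knockout mice. The part of that array's brightness in its low ratios was not tested.

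Gimap1, Gimap6 and Gimap9 had narrow and overlapping ranges in the genotypes other than the p27 knockout. The Gimap1 ratio ran from 5.84 to 6.89 in wild type (median 6.24), from 4.98 to 6.39 with stathmin deleted (6.21) and from 5.47 to 6.33 with both deleted (5.96). With p27 deleted it was 6.41 to 7.14 in 5 mice and 0.03 in replicate 6. Gimap6 ran from 5.88 to 6.55 in wild-type mice (median 6.12), 4.91 to 6.22 in stathmin knockout mice (6.01) and 5.64 to 6.19 in double knockout mice (5.99). Its p27 knockout values were 6.09 to 6.82 in 5 mice and -0.23 in replicate 6. Gimap9, a member studied less than the others, ran from 4.55 to 5.01 in wild-type mice (4.81), 3.51 to 5.00 in stathmin knockout mice (4.51) and 4.43 to 4.85 in double knockout mice (4.63). It read -2.14 in p27 knockout replicate 6 and 2.57 in replicate 5. The raw Cy5 intensity of Gimap9 was 189 units in that replicate 6 and 5669 to 15330 in replicates 1 to 4, while its Cy3 intensity was 622 to 936 on all 24 arrays.

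The Gimap5 probes lay between these patterns. Gimap5, whose loss leads to early death of T cells, had medians on probe A_51_P176365 of 4.25 for wild type (2.83 to 4.96), 4.08 for p27 knockout (0.95 to 5.14), 4.55 for stathmin knockout (2.56 to 4.71) and 4.60 for double knockout (4.29 to 4.94). Probe A_52_P102931, named through a cDNA clone, had medians of 3.81, 4.15, 4.53 and 4.16 in the same order, with ranges of 2.48 to 4.73, -0.44 to 5.10, 2.92 to 4.80 and 2.64 to 4.82. The second Gimap7 probe, A_52_P684783, was low and flat, with means of 1.04 ± 0.74 (SD, n = 6), 0.98 ± 0.32, 1.14 ± 0.60 and 0.90 ± 0.58. The groups overlapped on these 3 probes.

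The comparison of the double with the p27 knockout asks what loss of stathmin adds when p27 is absent. Gimap4, Gimap7 and Gimap3 were higher in the double knockout, on 1 probe each, and no member passed as lower. That is 3 of 10 probes higher, where 13.3% of all 35185 probes were called higher, 16.8% lower and 30% either way. Gimap4 rose by 2.62 ± 0.68 (SE) on the log2 scale, 6.16-fold (95% interval 1.21 to 4.03, limma adjusted p = 0.00925), and was higher on 6 of 6 slides. Gimap7 A_51_P448147 rose by 1.93 ± 0.64, 3.81-fold (adjusted p = 0.0271), on 6 of 6 slides. As for Gimap4, its spot on p27 knockout replicate 6 was not well above background (127 units), and its reference was so on 0 arrays, so the folds of these probes are approximate. Gimap3 A_51_P516753 rose by 1.82 ± 0.62, 3.54-fold (adjusted p = 0.0323), on 5 of 6 slides. With slide as a block these adjusted p values were 0.00896, 0.0264 and 0.0366. The first 2 of these probes were also the members whose groups did not overlap, a pattern that 6.01% of all probes showed in that direction.

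The 3 calls depended on which p27 knockout arrays were used. Without p27 knockout replicates 5 and 6 none of the 3 passed: Gimap4 was at 1.80 (adjusted p = 0.0711), Gimap7 A_51_P448147 at 1.24 (adjusted p = 0.166) and Gimap3 A_51_P516753 at 1.00 (adjusted p = 0.235). For Gimap4 and Gimap7 the highest p27 knockout values, 3.85 and 3.70, were in mice that stayed in. Leaving out replicates 5 and 6 thus could not make the groups overlap (lowest double knockout mice at 4.17 and 4.00). The lack of overlap in the remaining mice therefore adds nothing here. Gimap7 and Gimap3 were also lost on leaving out p27 knockout replicate 3, 5 or 6 or double knockout replicate 1 singly (adjusted p = 0.0515 to 0.0846), and Gimap3 on leaving out double knockout replicate 2 or 6. Gimap4 passed whichever single mouse was left out, and also with array weights, which gave p27 knockout replicates 5 and 6 weights of 0.154 and 0.0536 (1.78, adjusted p = 0.0116). Gimap7 and Gimap3 did not pass with those weights (adjusted p = 0.0598 and 0.105).

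The other 7 probes did not pass with all mice. The second Gimap3 probe was at 1.33 ± 0.61 (SE) with adjusted p = 0.101, so it had the direction of the first without reaching the threshold. Gimap9 was at 1.41 ± 0.77, the Gimap5 probes at 0.87 ± 0.51 and 0.57 ± 0.65, Gimap6 at 0.69 ± 0.75 and Gimap1 at 0.36 ± 0.76 (adjusted p = 0.16 to 0.735). The second Gimap7 probe was at -0.09 ± 0.33 (adjusted p = 0.855) and differs in this from the first. Over the 10 probes, 9 lay above 0 with a median of 1.10, against -0.08 for all probes tested. Without p27 knockout replicates 5 and 6, 5 lay above 0 and the median was 0.02, against -0.06.

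Gimap1 changed direction with the dim arrays. Without p27 knockout replicates 5 and 6 it was lower in the double knockout, at -0.82 ± 0.25 (SE, limma adjusted p of 0.0376), in a comparison where 8.95% of all probes were then called lower, 6.04% higher and 15% either way. In those 4 p27 knockout mice Gimap1 averaged 6.76 ± 0.27 (SD, n = 4), against 5.94 ± 0.30 in the double knockout. Gimap6 had the same direction, at -0.49, and did not pass (adjusted p = 0.119). Double-positive thymocyte genes stood the same way, with 8 of 10 lower in the double knockout without those replicates (median -1.01) and 0 of 10 with them. Their part in the Gimap1 value was not tested.

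**Figure D2:**
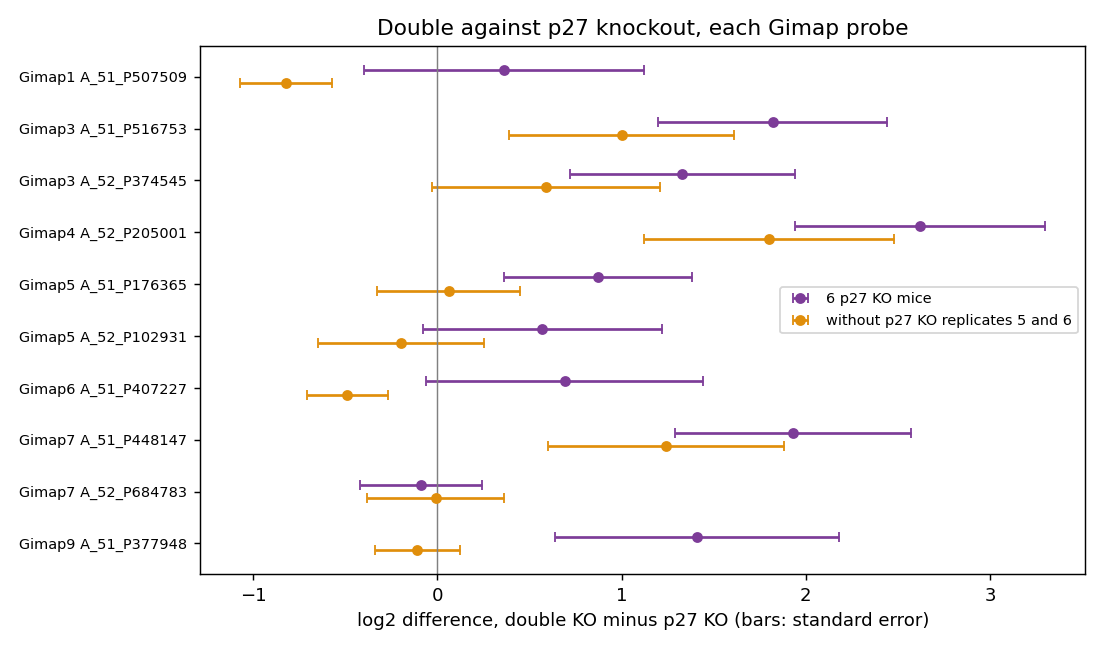
Difference in log2 ratio between double and p27 knockout (horizontal axis, double minus p27) for each Gimap probe, with its standard error, from all mice (purple) and without p27 knockout replicates 5 and 6 (orange). Gimap4 moves from 2.62 to 1.80 and Gimap1 from 0.36 to -0.82.

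Loss of p27 alone was compared with wild type. All 10 Gimap probes were lower in the p27 knockout in value, with a median difference of -0.79 against 0.07 for all probes, but 0 passed, where 0.00568% of all probes were called. With Agilent's own ratios or the Cy5 channel alone 1 of the 10 lay above 0. Gimap4 had the lowest p, at -1.59 ± 0.68 (SE; unadjusted p = 0.0287, adjusted p = 0.131), and was above wild type on 2 of 6 slides. It was the 1 member with an unadjusted p under 0.05, a share of 10%, against 29.3% of all probes. Gimap9 was at -1.55 ± 0.77, Gimap7 A_51_P448147 at -1.22 ± 0.64 and Gimap3 A_51_P516753 at -0.91 ± 0.62. With p27 knockout replicates 5 and 6 left out, where 0.00284% of all probes were called and 0 members, the median was 0, with 5 of 10 above 0, and Gimap4 was at -0.76 and Gimap9 at -0.03. Without wild-type replicate 6, whose Gimap4 ratio was 0.95, Gimap4 alone passed, at -2.09 (adjusted p = 0.0418), and 11.7% of all probes were then called. The share of all probes called was also 11.2%, 6.76% and 10.9% without p27 knockout replicate 1, 2 or 4 and 12.6% with array weights, with 0 members called in each.

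Loss of stathmin alone gave small differences from wild type with wide intervals. Of the 10 probes 0 passed, where 0.00284% of all probes were called, and 0 had an unadjusted p under 0.05. The differences ran from -0.36 for Gimap6 to 0.35 for Gimap5 A_52_P102931, with a median of 0.09. The 95% interval for Gimap4 was -1.18 to 1.64 around 0.23, and that for Gimap3 A_51_P516753 was -1.28 to 1.30 around 0.01, so changes of more than 2-fold in either direction lay inside both.

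The double knockout against wild type gave 0 of 10 members, where 0.0114% of all probes were called, and 0 at an unadjusted p under 0.05. Gimap4 was at 1.03 ± 0.68 (SE), Gimap3 A_51_P516753 at 0.91 ± 0.62 and Gimap7 A_51_P448147 at 0.71 ± 0.64, each above wild type on 5 of 6 slides. Gimap1 was at -0.34 and Gimap6 at -0.17, each above wild type on 1 of 6. The members' median of 0.34 was -0.16 on the Cy5 channel alone and -0.21 with scaling between arrays, so no direction is given for the family.

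Against the stathmin knockout, loss of p27 gave 0 of 10 members in the double knockout, where 0.00568% of all probes were called, and 0 at an unadjusted p under 0.05. Gimap3 A_51_P516753 was at 0.90 ± 0.62 (SE), Gimap4 at 0.81 ± 0.68 and Gimap7 A_51_P448147 at 0.59 ± 0.64. The 2 comparisons with the double knockout just given and that with the p27 knockout share the same 6 double knockout arrays.

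Whether the effect of 1 deletion depended on the other was tested as an interaction (double minus p27 minus stathmin knockout plus wild type). It passed for 0 of 10 members and for 0% of all probes. Gimap4 was at 2.40 ± 0.96 (SE; unadjusted p = 0.0205, adjusted p = 0.258), the 1 member with an unadjusted p under 0.05, where 18.4% of all probes had one. Gimap7 A_51_P448147 was at 1.82 ± 0.90 and Gimap3 A_51_P516753 at 1.81 ± 0.88 (adjusted p = 0.278 and 0.274). With p27 knockout replicates 5 and 6 left out these values were 1.57, 1.12 and 0.99, none past the threshold. The higher Gimap4 ratio of the double over the p27 knockout is thus not shown to differ from what stathmin loss did in wild-type mice.

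Some probes varied together across mice and others did not. Over the 22 arrays without p27 knockout replicates 5 and 6, Gimap3 A_51_P516753 and Gimap7 A_51_P448147 had a Pearson correlation of 0.938 (Spearman 0.909), and Gimap4 with Gimap7 had 0.859. The 2 Gimap3 probes had 0.922. Gimap1 and Gimap6, with the highest ratios of the family, had 0.859 (Spearman 0.837), while Gimap1 with Gimap3 A_51_P516753, Gimap7 A_51_P448147 and Gimap4 had 0.0643, -0.0107 and -0.214. Gimap9 with Gimap6 had a Pearson correlation of 0.582 but a Spearman correlation of 0.11. Gimap5 A_51_P176365 was between these, with 0.719 to Gimap7 A_51_P448147, 0.698 to Gimap3 A_51_P516753 (Spearman 0.71), its neighbour in the cluster, and 0.659 to Gimap6. Gimap7 A_52_P684783 had up to 0.68, with Gimap3 A_52_P374545. The arrays share slides and genotypes, so these correlations are descriptions.

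**Figure D3:**
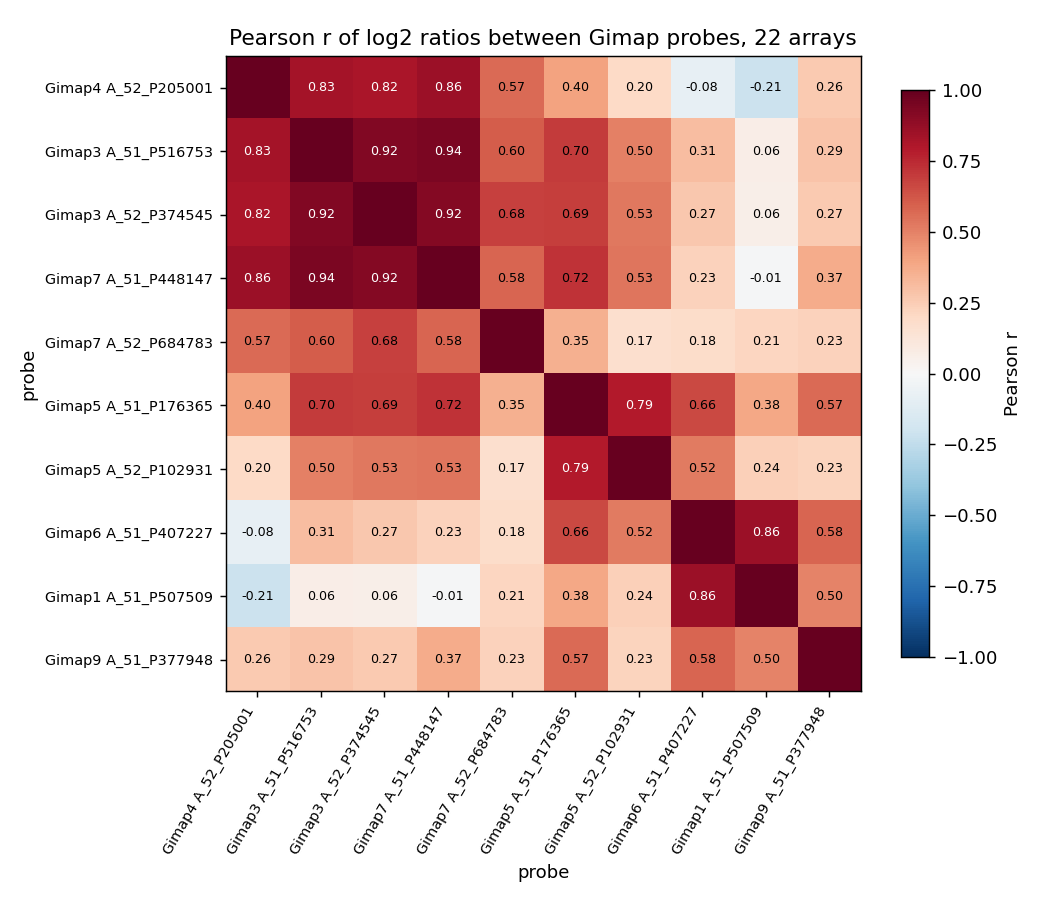
Pearson correlation of log2 ratios between each pair of Gimap probes over 22 arrays (colour and printed value, from -1 to 1). The probes of Gimap4, Gimap3 and the first of Gimap7 form a block with values up to 0.94, and Gimap1 with Gimap6 has 0.86.

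Probes of 1 gene differed in some cases. The 2 Gimap5 probes correlated by 0.79 over the 22 arrays. The 2 Gimap7 probes correlated by 0.584, with medians of 3.86 and 1.02 and differences of 1.93 and -0.09 between double and p27 knockout. Probe sequences were not used here, so what each Gimap7 probe reads, and whether the Gimap3 and Gimap5 probes read both of these similar genes, was not tested.

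Array by array, the low values of p27 knockout replicates 5 and 6 reached different members. In replicate 5, Gimap1 and Gimap6 stood at 6.41 and 6.09, inside the range of the other p27 knockout mice or just below it, while Gimap4, Gimap3 and Gimap9 were at 0.04, 2.00 and 2.57. In replicate 6 Gimap1, Gimap6 and Gimap9 also fell to the level of the pool or below it. On that array the medians of the cell type lists ran from -0.56 for fibroblast genes to 0.17 for mature T cell genes. Ratios near 0 there were thus not particular to the Gimap probes. The median over the 10 probes was 2.38 in replicate 5, 0.35 in replicate 6 and 3.34 to 4.75 in the other 4 p27 knockout mice. It ran from 2.92 to 5.33 over wild-type mice, 2.78 to 5.32 over stathmin knockout mice and 4.43 to 4.84 over double knockout mice, the narrowest range of the 4 genotypes. The thymocyte, mature T cell, B cell, natural killer and thymic epithelial lists were also narrowest there. The endothelial, myeloid, fibroblast and adipocyte lists were not. Brightness was 200 to 320 kilo-units in the double knockout and 56.3 to 286 in wild type, and its part in these ranges was not tested.

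**Figure D4:**
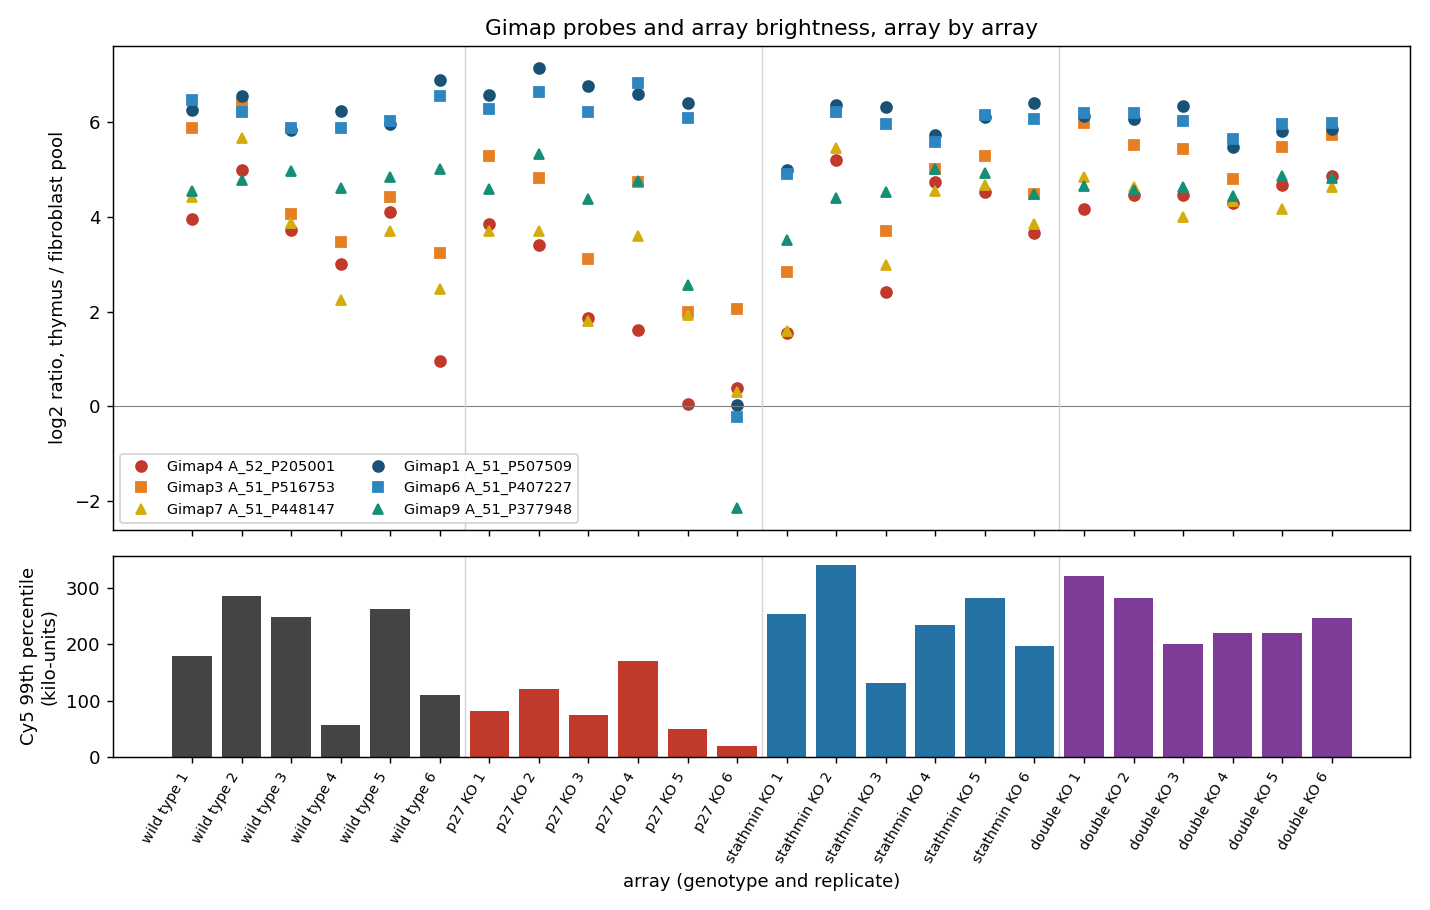
Upper panel: log2 ratio of 6 Gimap probes on each of the 24 arrays. Lower panel: the 99th percentile of Cy5 intensity of that array in kilo-units, with bars from 0. The dimmest array, p27 knockout replicate 6 at 19.3, has all 6 probes at or below 2.05.

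Genes whose pattern over the 22 arrays was most like the mean standardised Gimap profile were ranked among 16684 named genes. They were Ly9 (Pearson 0.885, Spearman 0.839), a lymphocyte surface receptor of the SLAM family, Lta (0.883, 0.905), the cytokine lymphotoxin alpha, Gpr171 (0.883, 0.762), a G protein-coupled receptor, Samsn1 (0.881, 0.902), an adaptor of lymphocytes, and Lax1 (0.872, 0.879), an adaptor of antigen receptor signalling. The next were Fgr (0.872, 0.79), a Src family kinase, Cd69 (0.863, 0.619), an activation marker of selected thymocytes, Ccr7 (0.863, 0.909), the receptor that guides selected thymocytes into the medulla, Zmynd15 (0.862, 0.878) and Tnfaip8l2 (0.861, 0.863). Of these 10, 5 were again among the top 10 over all 24 arrays and 4 after each genotype's mean was subtracted. Samsn1 moved from place 4 to place 3274 over all 24 arrays, with a Pearson correlation of 0.569. In the double against the p27 knockout their differences ran from 0.32 for Fgr to 1.48 for Gpr171, and none passed (adjusted p = 0.0539 for Ly9 at the lowest).

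Mature T cell genes were the list closest to the Gimap family in role. Of 12 such genes, each read by its brightest probe, 1 rose and 0 fell in the double against the p27 knockout, with a median of 0.29 (all probes: 13.3% higher, 16.8% lower, median -0.08). Ms4a4b, a membrane protein of mature T cells, rose by 1.84 ± 0.58 (SE; adjusted p = 0.0217) and was at 1.11 on leaving out p27 knockout replicates 5 and 6 (adjusted p = 0.162). Il7r, the interleukin 7 receptor that keeps resting T cells alive, was at 1.30 ± 0.55 and Ccr7 at 1.43 ± 0.61 (adjusted p = 0.0734 and 0.0776). Without those replicates 0 of the 12 rose and 2 fell (all probes: 6.04% and 8.95%). The median level of the 12 genes ran from 2.61 to 4.20 over wild-type mice, 0.17 to 4.30 over p27 knockout, 2.54 to 4.45 over stathmin knockout and 3.54 to 4.16 over double knockout mice.

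GIMAP proteins have been reported to bind members of the BCL2 family, which decides the survival of lymphocytes. Of 13 such genes 12 had a kept probe, and 1 rose and 0 fell in the double against the p27 knockout, against 13.3% and 16.8% of all probes. That gene was Bad, which promotes cell death, at 0.90 ± 0.24 (SE; adjusted p = 0.00969), and at 0.86 on leaving out p27 knockout replicates 5 and 6 (adjusted p = 0.031). Its mean ratio was -1.10 with p27 deleted, -0.36 in wild type, -0.17 with stathmin deleted and -0.20 with both deleted. The list's median was -0.09, near that of all probes.

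The genes that flank the cluster were examined next. Of 20 neighbours, 10 on each side, 18 had a kept probe, and in the double against the p27 knockout 0 rose and 1 fell, with a median of 0.09, where 13.3% of all probes rose and 16.8% fell. The gene that fell was Ccdc126, a neighbour outside the family, at -1.34 ± 0.31 (SE; adjusted p = 0.00562), and at -0.89 on leaving out p27 knockout replicates 5 and 6 (adjusted p = 0.0377). Krba1, another neighbour, was at -0.51 (adjusted p = 0.193) and fell by 0.82 on leaving out those replicates (adjusted p = 0.0371), where 8.95% of all probes fell. Aoc1, also a neighbour, lay in the other direction, at 1.38 ± 0.54, and did not pass (adjusted p = 0.0554). On leaving out those replicates it was at 1.03 (adjusted p = 0.145). In the other comparisons none of the mature T cell, BCL2 or neighbour genes passed.

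Markers of other cells were counted in the double against the p27 knockout, where 13.3% of all probes were higher and 16.8% lower (6.04% and 8.95% without p27 knockout replicates 5 and 6). Fibroblast genes, the cell type of the reference pool, had 7 of 9 lower (median -1.25) and 0 of 9 without p27 knockout replicates 5 and 6 (median -0.69). Their median level ran from -3.21 to -0.56 over p27 knockout mice and from -3.76 to -2.67 over double knockout mice. Adipocyte genes had 4 of 9 higher (1 of 9 without those replicates), thymic epithelial genes 3 of 9 (2), natural killer genes 3 of 8 (1), B cell genes 2 of 7 (0), early thymocyte genes 2 of 7 (1), endothelial genes 2 of 10 (1) and myeloid genes 2 of 7 (1), with 0 lower in each. Several of these counts rest on 2 genes and lie near the share over all probes. Medians with and without those replicates were 1.22 and 0.98 for adipocyte genes and 1.38 and 0.88 for B cell genes. For natural killer genes they were 0.91 and 0.66, for myeloid genes 0.66 and 0.62 and for endothelial genes 0.84 and 0.31. Thymic epithelial genes had 1.25 and 0.14, and early thymocyte genes 0.6 and 0. B cells also express the Gimap family, and the median B cell level ran from 0 to 2.60 over p27 knockout mice and 2.08 to 3.12 over double knockout mice. The part of these cell types, and of array brightness, in the Gimap differences was not tested.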

How the data were processed

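Thymus RNA of 24 mice was hybridised in Cy5, in 1 orientation, against a common fibroblast pool in Cy3. Groups and replicate numbers come from the labels. The authors deposited the mean and background intensity of both channels for each spot and log10 ratios (Cy5 over Cy3), both made by Feature Extraction software of Agilent (version 9.1.3.1, per the file headers). A table of log2 values was also deposited by the authors, and its making is not given in the sources used. Against the scanner values, its columns had correlations of 0.9999 or more with the mean log2 brightness of the channels and of 0.067 or less with their log2 ratio, so it follows brightness on a log2 scale with no direction between channels, and its centring is unknown. In replicate order, the medians of its columns were 9.29, 9.36, 9.33, 8.66, 9.75 and 9.24 in wild type, 8.75, 8.75, 8.90, 9.12, 8.76 and 8.62 in the p27 knockout, 10.6, 9.46, 8.88, 9.10, 9.18 and 9.20 in the stathmin knockout, and 9.40, 9.32, 9.46, 9.17, 9.15 and 9.30 in the double knockout.

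Log2 ratios were computed here in R 4.3.3 with limma 3.58.1: normexp background correction (offset 50), loess within each array with control spots at weight 0, and removal of spots marked as outliers (a mean of 68 and a maximum of 314 per array). Probes of 1 gene were kept apart. Of 41174 gene probes, 35185 were kept (Cy5 well above background on at least 6 arrays), and 22951 probes matched by accession to the gene table of assembly GRCm38.p6. Comparisons used limma's moderated test over all 24 arrays with genotype as the only term, two-sided, adjusted by Benjamini-Hochberg over all kept probes (threshold 0.05). The number of arrays limits the precision. Identical signals were found in 0 pairs of arrays. Alternatives were other background, scaling, filter and channel choices, blocks, array weights, and mice left out.

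All members were named with all their probes. Other genes named were Cdkn1b and Stmn1 and the 10 genes with the highest correlation with the mean standardised member profile. Up to 3 members of the mature T cell, BCL2 and neighbour lists were also described, among them the gene with the lowest p of each list. The rest were not always next in order of p. Slfn2 of the mature T cell list and Rarres2, Igf2bp3, Lrrc61, Zfp467, Tmem176a and Zfp746 of the neighbours had a lower p than a gene described. The members and lists were chosen with earlier results of these data known.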

Additional observations from a re-analysis of the deposited data

Results flagged for a closer look

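Of 40 groups of 6 mice (10 probes in 4 genotypes), 6 held a mouse far from the others by Dixon's criterion, which chance meets in about 1 group in 20. In p27 knockout replicate 6 this held for 4 probes. Gimap1 read 0.03 there against 6.41 to 7.14 in the other 5 mice. Gimap6 read -0.23 against 6.09 to 6.82, Gimap9 read -2.14 against 2.57 to 5.32, and Gimap5 A_52_P102931 read -0.44 against 3.57 to 5.10. That array also had the lowest Cy5 brightness of the 24, at 19.3 kilo-units. Gimap5 A_51_P176365 read 2.56 in stathmin knockout replicate 1, against 4.39 to 4.71 in the other 5 mice, and Gimap5 A_52_P102931 read 2.64 in double knockout replicate 3, against 4.01 to 4.82. Gimap4, Gimap3 and Gimap7 had no such mouse in any genotype, but the criterion can miss 2 low mice that lie close together. In p27 knockout replicates 5 and 6, Gimap4 read 0.04 and 0.38 and Gimap3 A_51_P516753 read 2.00 and 2.05.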

How the results depend on the processing

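In the double against the p27 knockout, 3 Gimap probes passed, and 3 also passed without background correction, with Agilent's log ratio, with scaling between arrays, without a filter and with slide as a block. With array weights 2 passed (Gimap4 higher, Gimap1 lower), and 2 with the brightest probe per gene. Only 1 passed on the Cy5 channel alone (Gimap4, at 2.47) and 1 when Cy5 had to be well above background on all 24 arrays, which leaves out Gimap4 and both Gimap7 probes. With the authors' deposited values 9 passed, where 52% of all probes did and the median over all probes was 0.68. Without p27 knockout replicates 5 and 6, 1 passed (Gimap1, lower), and likewise 1 without these and wild-type replicate 4, an alternative chosen after seeing the data. Leaving out single mice gave 1 to 4, with 1 without p27 knockout replicate 3 or 5 or double knockout replicate 1. Gimap1, at 0.36, was 1.49 on the Cy5 channel alone (adjusted p = 0.141) and 2.14, past the threshold, with the authors' deposited values (adjusted p = 0.00307), but -0.93 with array weights (adjusted p = 0.0108), -0.82 without p27 knockout replicates 5 and 6 with or without wild-type replicate 4, and between -0.75 (without p27 knockout replicate 6, adjusted p = 0.0265) and 0.67 without single mice.

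In the p27 knockout against wild type, 0 probes passed, against 8 lower in the authors' deposited table (26.3% of all probes; median over all probes -0.57) and 0 to 1 without single mice, the 1 being without wild-type replicate 6. The other comparisons gave 0 under every alternative run. Of the 10 most similar genes, 5 were shared over all 24 arrays and 4 within genotypes. Except where fewer probes entered the fit, the cause was not tested.

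Replicate numbers did not consistently pair the mice, with lowest correlations of -0.36, -0.0209, -0.21, -0.529, -0.323 and 0.00362 for numbers 1 to 6. Mean correlations by number ran from -0.13 to 0.224. Grouped by slide, the means ran from 0.0174 to 0.263 and the lowest values from -0.323 to 0.0589. These groupings differ only in the p27 knockout. With the replicate block 3 probes passed in the double against the p27 knockout (Gimap4 adjusted p = 0.00909) and 0 in each other comparison.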
